A study of Homo sapiens with 6 samples.

Results

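Chromatin accessibility was described at 10 genes of the cardiac sarcomere: the giant elastic protein titin (TTN), the Z-disc genes ACTN2, LDB3, MYPN, NEXN and MYOZ2, the M-band gene MYOM1, the myosin-binding protein gene MYBPC3, and the thin filament genes TPM1 and ACTC1. Each gene was given a window on hg19, and every called ATAC-seq peak whose midpoint fell in a window was taken. The windows together spanned 1220 kb on 7 chromosomes and held 571 of the 478912 peaks in the 6 lists. On hg19 the windows ran from 179.37 to 179.72 Mb of chromosome 2 for TTN, 236.83 to 236.95 Mb of chromosome 1 for ACTN2 and 78.34 to 78.42 Mb of chromosome 1 for NEXN. Those of LDB3 (88.41 to 88.51 Mb) and MYPN (69.85 to 69.99 Mb) lay on chromosome 10, and those of TPM1 (63.32 to 63.38 Mb) and ACTC1 (35.06 to 35.11 Mb) on chromosome 15. MYOZ2 had 120.04 to 120.12 Mb of chromosome 4, MYBPC3 47.34 to 47.39 Mb of chromosome 11, and MYOM1 3.05 to 3.24 Mb of chromosome 18. The cells were ventricular-like cardiomyocytes at day 15 of differentiation from H9, an established line of human embryonic stem cells. ZNF436, which encodes a zinc finger protein with a KRAB domain, was knocked down in 3 libraries and left as control in 3, each from its own differentiation per the labels. How the knockdown was made, and what the control cultures received, is not given in the sources used here. All 6 cultures went through the same ventricular cardiomyocyte kit, and how many of their cells were cardiomyocytes was not measured here.

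The sarcomere is the contractile unit of striated muscle. Thin filaments of actin and tropomyosin are anchored in the Z-disc, thick filaments of myosin are cross-linked in the M-band, and titin spans from the one to the other as a molecular spring. In ATAC-seq a transposase inserts adapters into DNA that is not wrapped in nucleosomes, so promoters and enhancers in use appear as peaks. MYOM1 and MYBPC3 belong to the M-band and the thick filament and not to the Z-disc or the thin filament. No annotation of hg19 was used here, so the sites below are given by position and not as promoter, exon or intron. Windows reach past the genes, and some sites may belong to a neighbour. The adjoining protein-coding genes are PLEKHA3 and CCDC141 for TTN, OPN4 and BMPR1A for LDB3, and MADD and SPI1 for MYBPC3.

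Promoters of 4 of these genes are shown as background on the regulatory letters that muscle genes carry, since these windows held the highest-ranking sites (TTN and LDB3), the 1 change past the test (ACTN2) and the widest covered site (ACTC1). They are RefSeq sequences on GRCh38.p14, 250 bases before to 50 after the gene start, written 5′ to 3′. Their coordinates are of another build than the peaks and were not compared with them. Capitals mark CArG boxes (the site of serum response factor), MEF2 sites, the GATA-factor hexamer TGATAA along with its variant AGATAA, the TEAD-factor letters CATTCC and TATAAA, searched on both strands.
TTN, chr2:178807374-178807673, minus strand: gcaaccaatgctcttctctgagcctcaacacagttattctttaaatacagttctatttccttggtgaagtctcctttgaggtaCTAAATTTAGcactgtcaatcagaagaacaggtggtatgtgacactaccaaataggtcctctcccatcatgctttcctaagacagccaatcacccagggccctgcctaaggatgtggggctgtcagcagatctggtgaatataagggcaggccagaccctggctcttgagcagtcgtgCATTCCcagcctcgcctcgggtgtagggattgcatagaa
LDB3, chr10:86668261-86668560, plus strand: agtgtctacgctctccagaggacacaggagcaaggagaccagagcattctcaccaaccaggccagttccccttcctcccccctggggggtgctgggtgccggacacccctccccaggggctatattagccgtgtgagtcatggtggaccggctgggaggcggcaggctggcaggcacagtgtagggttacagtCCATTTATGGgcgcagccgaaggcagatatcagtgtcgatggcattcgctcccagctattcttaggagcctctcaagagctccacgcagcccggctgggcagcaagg
ACTC1, chr15:34795500-34795799, minus strand: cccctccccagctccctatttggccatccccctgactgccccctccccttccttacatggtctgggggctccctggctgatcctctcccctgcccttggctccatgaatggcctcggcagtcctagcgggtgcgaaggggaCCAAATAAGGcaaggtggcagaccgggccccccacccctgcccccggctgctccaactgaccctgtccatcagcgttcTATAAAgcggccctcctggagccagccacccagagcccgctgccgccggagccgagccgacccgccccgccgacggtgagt
ACTN2, chr1:236686249-236686548, plus strand: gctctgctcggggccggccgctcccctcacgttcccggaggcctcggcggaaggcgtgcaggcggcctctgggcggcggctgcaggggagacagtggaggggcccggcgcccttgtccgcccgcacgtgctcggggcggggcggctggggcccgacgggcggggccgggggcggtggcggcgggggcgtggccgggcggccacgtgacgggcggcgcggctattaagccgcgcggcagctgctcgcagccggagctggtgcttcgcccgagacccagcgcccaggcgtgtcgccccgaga

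The TTN promoter held a MEF2 site and a CATTCC, the LDB3 promoter a CArG box, and the ACTC1 promoter a CArG box followed by TATAAA. The ACTN2 promoter had none of these letters and a GC content of 80.3%, against a median of 58.7% over 35116 promoters. Counting every promoter entry of a gene, a CArG box occurred at 3 of the 10 genes (MYOM1, LDB3 and ACTC1) and in 1.29% of all promoters. A MEF2 site occurred at 3 genes (TTN, MYOZ2 and MYBPC3) and in 2.99% of all promoters. The GATA hexamers were found at MYOM1, NEXN and MYBPC3 (16.3% of all), CATTCC at TTN, MYPN, NEXN and ACTC1 (14% of all), and TATAAA at MYPN and ACTC1 (11.5% of all). The A and T bases of these motifs may overlap one another. The E-box CANNTG was found at 8 of the 10 genes and in 68.7% of all promoters, and is not capitalised. The shares of all promoters count single entries and not genes. Of the 13 entries of the 10 genes, 4 held a CArG box, 3 a MEF2 site and 3 a GATA hexamer. CATTCC was in 4 of the 13, TATAAA in 2 and the E-box in 10. A match is a string of letters and not an observed binding site.

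The lists of the 3 knockdown libraries held 115864, 102454 and 87871 peaks (replicates 1, 2 and 3), against 50719, 53662 and 68342 peaks in the 3 control libraries. No read counts are given, so the sequencing depth is unknown, and a longer list cannot be told apart from a deeper library. Each window was therefore also compared as a share of its library's peaks. A different share of cardiomyocytes in a culture and a different amount of open DNA per cardiomyocyte cannot be told apart in these bulk libraries. Control replicate 3 had the longest control list and the most peaks of the control libraries in all 10 windows.

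Knockdown cells had more called peaks at the sarcomere genes than control cells. Together the windows held 152, 123 and 116 peaks in the knockdown libraries, against 51, 52 and 77 peaks in the control libraries. The mean was 130.3 ± 19.1 peaks in knockdown and 60.0 ± 14.7 in control (SD over 3 libraries a group), or 2.17 ± 0.621 times as many (two-sided exact permutation p = 0.1). The ratio of the whole lists was 1.77 ± 0.379. As a share of the library, the windows took 13.1, 12 and 13.2 of every 10000 peaks in knockdown, against 10.1, 9.69 and 11.3 in control. The groups did not overlap, and the ratio of the mean shares was 1.24 ± 0.118 (two-sided exact permutation p = 0.1, the smallest that 3 against 3 libraries can give). With the stronger part of each list, the upper 50% by score, that ratio was 1.01. Peaks covered 73784, 60898 and 60446 bases of the windows in knockdown and 19235, 19937 and 33119 bases in control. Their ratio was 2.70 ± 0.931 (two-sided exact permutation p = 0.1). With 1 library left out it ran from 2.45 (control replicate 1) to 3.32 (control replicate 3). With lists of equal length it was 2.04. Over the whole lists, the ratio of covered bases was 1.85 ± 0.336. As a share of each library's covered bases, the ratio of the windows was 1.48 ± 0.282 (two-sided exact permutation p = 0.1).

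**Figure D1:**
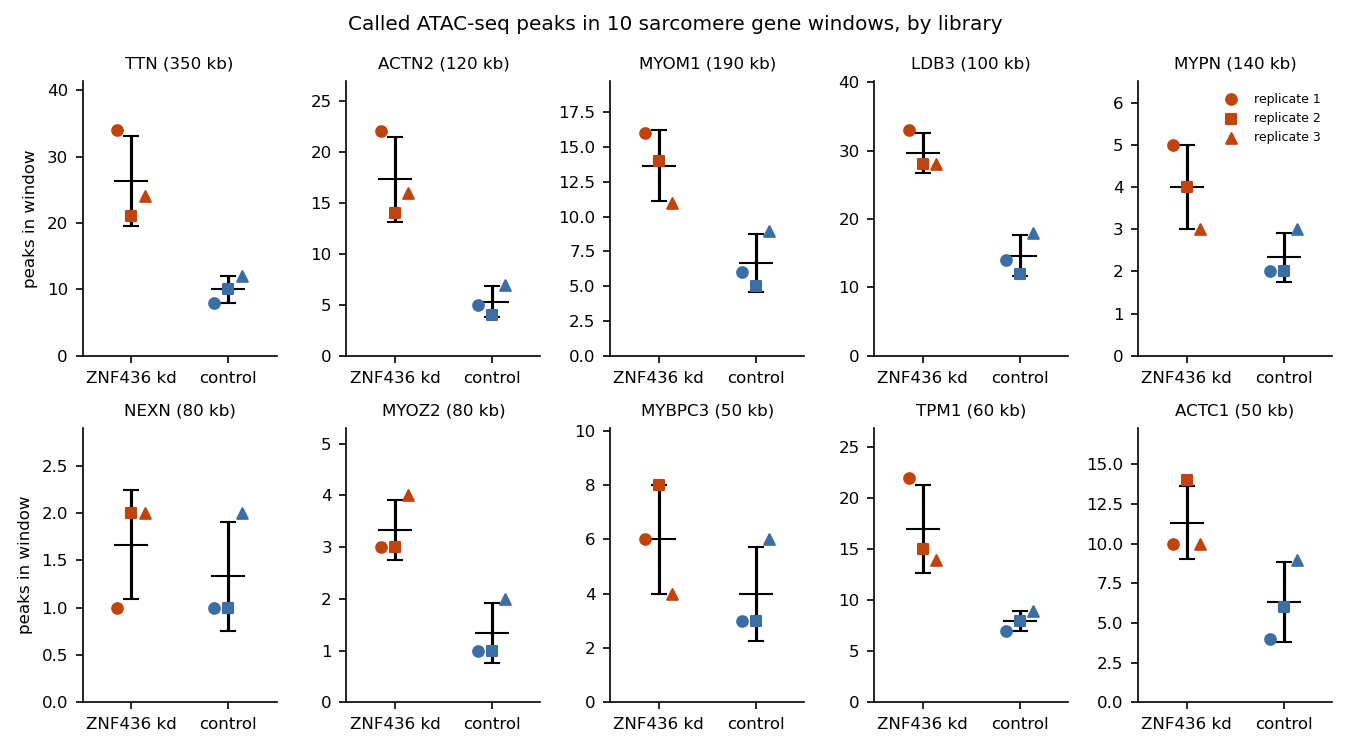
Called peaks in each of the 10 gene windows (vertical axis, number of peaks, scaled per gene), for the 3 knockdown libraries on the left and the 3 control libraries on the right of each panel. Points are libraries, the bar is the mean and the whiskers are 1 SD. In 7 of the 10 windows every knockdown library lies above every control library, as in 44.4% of all windows and tiles tested.

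Titin had the longest window, 350 kb, with 7.52 peaks per 100 kb in knockdown and 2.86 in control. It held 34, 21 and 24 peaks in knockdown, against 8, 10 and 12 peaks in control. Every knockdown library was above every control library (two-sided exact permutation p = 0.1), with a mean of 26.3 ± 6.81 and 10.0 ± 2.0 peaks (SD, n = 3 each). As a share of the library the log2 change was 0.51 ± 0.18 (SE; limma adjusted p = 0.0893), which did not pass the threshold of 0.05. With lists of equal length it was 0.10 (limma adjusted p = 0.802), and with the stronger part of each list -0.34 (limma adjusted p = 0.186). The added peaks of TTN were not spread along the whole window. Between 179.57 and 179.67 Mb the knockdown libraries had 20, 8 and 11 peaks and the control libraries 0, 2 and 4. This stretch was picked after its values were seen. Of its 22 sites, 0 were called in all 6 libraries and 3 in every knockdown library but no control library. Many of the others were called in 1 library alone, mostly knockdown replicate 1, the longest list. Those single-library sites ranked at the 29.3 percentile of their list or lower. The neighbouring stretch from 179.52 to 179.57 Mb had 0 peaks in all 6 libraries.

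The leading site of TTN lay at chr2:179493234-179494919, inside the window and far from both of its ends. Its score ranked at the 99.3, 98.9 and 99.7 percentile of the knockdown lists, against the 89.9, 87.4 and 92.5 percentile of the control lists. Peaks covered 1491, 1340 and 1512 bases of it in knockdown and 530, 636 and 1186 bases in control. Since lists of different length give no comparable ranks, the site was also ranked among the 28749 sites called in all 6 libraries. There it stood at 97.1, 96.3 and 99.1% in knockdown, against 82.7, 77.2 and 82.6% in control. That rank rose by 16.6 ± 2.38 percentile points (SE; limma adjusted p = 0.0103). It was 17.6 points without control replicate 1 and 14.8 without control replicate 2, where the limma adjusted p was 0.0696 and 0.0699. A further shared site at chr2:179671214-179672984 was covered over 1771, 1667 and 1594 bases in knockdown, against 845, 871 and 1163 bases in control.

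ACTN2 encodes alpha-actinin, the main cross-linker of actin in the Z-disc, and its window had the largest increase in share of the 9 tested. It held 22, 14 and 16 peaks in knockdown, against 5, 4 and 7 peaks in control. The lowest knockdown library had more peaks than the highest control library. As a share of the library its log2 change was 0.79 ± 0.20 (SE; limma adjusted p = 0.0366), higher in 3 of 3 knockdown libraries. Of 13433 windows and tiles tested, 1.63% passed the test as higher and 4.35% as lower in knockdown. ACTN2 was the 1 of the 9 sarcomere windows tested that passed, and 0 passed as lower (limma; at an unadjusted p under 0.05, 2 were higher and 0 lower). Its call was lost without knockdown replicates 1 or 3, where the change was 0.71 and 0.73 (limma adjusted p = 0.167 and 0.126). Over all features, 2 and 3 then passed as higher, against 219 with all libraries. It was also lost without control replicates 1 or 2, where the change was 0.85 and 0.66 (limma adjusted p = 0.0511 and 0.0749). It was also lost with lists of equal length, where the change was 0.39 (limma adjusted p = 0.422), and with the stronger part of each list, where it was 0.53 (limma adjusted p = 0.330).

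Sites of ACTN2 clustered at the low end of the window. The site at chr1:236849458-236851203 was covered over 1695, 1514 and 1483 bases in knockdown, against 363, 375 and 1386 bases in control, so that control replicate 3 stood with the knockdown libraries. By score it stood at 39.0, 28.3 and 17.0% among the shared sites in knockdown and at 17.8, 36.5 and 48.8% in control, with overlap. The site with the highest scores, at chr1:236851927-236852455, ranked at the 92.4, 90.2 and 90.0 percentile of the knockdown lists and the 71.1, 69.1 and 84.7 percentile of the control lists. Among the shared sites it stood at 70.0, 65.6 and 70.2% in knockdown and 51.8, 46.6 and 64.8% in control. Further along, 5 sites were called in all 3 knockdown libraries and no control library. The strongest of them, at chr1:236866373-236866698, ranked between the 37.1 and 55.6 percentile of the knockdown lists, so these were sites of middle or low score.

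LDB3 encodes cypher (ZASP), a PDZ and LIM protein that binds alpha-actinin, and its window had the most peaks per length of the 10. It held 33, 28 and 28 peaks in knockdown, against 14, 12 and 18 peaks in control, or 29.7 and 14.7 per 100 kb. The groups did not overlap, yet the log2 change of its share was 0.18 ± 0.16 (SE; limma adjusted p = 0.492), so that the gain was near that of the whole list. Its leading site, at chr10:88443126-88445128, had the highest scores of all 10 windows in control. It ranked at the 99.3, 98.8 and 99.1 percentile of the knockdown lists and at the 94.1, 95.6 and 97.6 percentile of the control lists. Among the shared sites it stood at 97.3, 96.0 and 97.3% in knockdown and 89.8, 92.1 and 94.5% in control. Peaks covered 2003, 1635 and 1362 bases of it in knockdown and 822, 1249 and 1299 bases in control.

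The remaining Z-disc genes had few sites. MYPN, for the alpha-actinin-binding protein myopalladin, held 5, 4 and 3 peaks in knockdown, against 2, 2 and 3 in control, and the groups met at 3. Its leading site, at chr10:69913278-69914143, was covered over 827, 866 and 357 bases in knockdown and 642, 277 and 342 bases in control, which overlapped. By score it stood at 48.3, 47.6 and 34.4% among the shared sites in knockdown and at 22.6, 24.7 and 27.1% in control. NEXN, for the actin-binding protein nexilin, held 1, 2 and 2 peaks in knockdown, against 1, 1 and 2 in control, with a mean under the minimum of 2 peaks for the fit. With a minimum mean of 1 peak, the log2 difference of its share was -0.58 ± 0.39 (SE; limma adjusted p = 0.354). Nearly all of the open DNA of NEXN was 1 site at chr1:78353753-78355549. It was covered over 1747, 1792 and 1606 bases in knockdown and 756, 1037 and 1189 bases in control. By score it stood at 72.3, 61.7 and 72.8% among the shared sites in knockdown and at 74.1, 61.6 and 76.5% in control, with overlap. MYOZ2, for the calcineurin-binding protein calsarcin-1, held 3, 3 and 4 peaks in knockdown, against 1, 1 and 2 in control. The window of MYOZ2 was the only one of the 10 with no site in all 6 libraries, although 4 sites were called between chr4:120056809 and chr4:120072668. As shares of the library, the log2 difference was -0.17 ± 0.26 for MYPN and 0.27 ± 0.34 for MYOZ2 (SE), and neither passed (limma adjusted p = 0.710 and 0.644).

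MYOM1, for the M-band cross-linker myomesin, held 16, 14 and 11 peaks in knockdown, against 6, 5 and 9 in control, without overlap. The log2 change of its share was 0.18 ± 0.19 (SE; limma adjusted p = 0.576). Its leading site, at chr18:3211465-3212122, was covered over 652, 423 and 373 bases in knockdown, against 243, 170 and 221 bases in control, without overlap. It ranked at the 92.1, 86.6 and 92.1 percentile of the knockdown lists and the 66.2, 86.4 and 66.2 percentile of the control lists. Among the shared sites it stood at 68.8, 54.3 and 76.4% in knockdown and 44.8, 75.5 and 31.1% in control, with overlap. Another site, picked for its rank difference, the largest of the 35 shared sites, lay at chr18:3219452-3220571. It was covered over 1114, 880 and 882 bases in knockdown, against 208, 426 and 317 bases in control. That site stood at 62.4, 52.6 and 31.8% among the shared sites in knockdown and at 27.4, 0.2 and 2.8% in control, a difference of 38.8 ± 10.9 points that missed the threshold (SE; limma adjusted p = 0.0686). Of the sites called only in knockdown, the one with the highest lowest percentile of the 10 windows was at MYOM1, chr18:3062910-3063366, at the 60.7, 72.0 and 71.6 percentile of the knockdown lists. With lists of equal length it was the only such site left in the windows. MYBPC3, for cardiac myosin-binding protein C, held 6, 8 and 4 peaks in knockdown, against 3, 3 and 6 in control. The groups overlapped, and the log2 difference of its share was -0.28 ± 0.26 (SE; limma adjusted p = 0.519). Its leading site, at chr11:47376400-47377245, was covered over 846, 579 and 516 bases in knockdown and 295, 301 and 449 bases in control. By score it stood at 79.4, 68.0 and 75.3% among the shared sites in knockdown and at 48.4, 51.0 and 68.6% in control, with overlap.

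The thin filament genes TPM1 and ACTC1 had short windows with much open DNA. TPM1, for alpha-tropomyosin, held 22, 15 and 14 peaks in knockdown, against 7, 8 and 9 in control, and peaks covered 19.7% of its 60 kb in knockdown and 7.62% in control. The log2 difference of its share was 0.19 ± 0.18 (SE; limma adjusted p = 0.507). The leading site at chr15:63339111-63342717 was covered over 3073, 2643 and 3443 bases in knockdown, against 1952, 1414 and 1787 bases in control. By score it stood at 70.0, 81.0 and 82.6% among the shared sites in knockdown and at 89.3, 77.2 and 79.1% in control, with overlap. Beside it, the site at chr15:63344498-63347001 was covered over 2083, 1701 and 1549 bases in knockdown and 268, 278 and 466 bases in control. By score this wide site stood lower among the shared sites in knockdown, at 10.9, 16.6 and 21.9%, against 57.8, 51.0 and 38.6% in control. That difference of -32.7 ± 9.60 points missed the threshold (SE; limma adjusted p = 0.0792).

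ACTC1, for cardiac alpha-actin, held 10, 14 and 10 peaks in knockdown, against 4, 6 and 9 in control. The groups did not overlap, but control replicate 3 lay 1 peak below the lowest knockdown library. The log2 difference of its share was 0.01 ± 0.23 (SE; limma adjusted p = 0.984). The covered bases set the groups further apart than the number of peaks. As a share of the library, their log2 difference was 0.80 ± 0.26 (SE), which missed the threshold (limma adjusted p = 0.0683). The site at chr15:35080968-35085774, the widest region of the 10 windows, was covered over 4061, 3893 and 3794 bases in knockdown, against 266, 859 and 1909 bases in control. The next site, at chr15:35087051-35089545, was covered over 2146, 2234 and 2469 bases in knockdown and 736, 1166 and 1519 bases in control. By score it stood at 66.4, 72.5 and 79.4% among the shared sites in knockdown and at 48.4, 55.0 and 81.5% in control, with overlap.

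**Figure D2:**
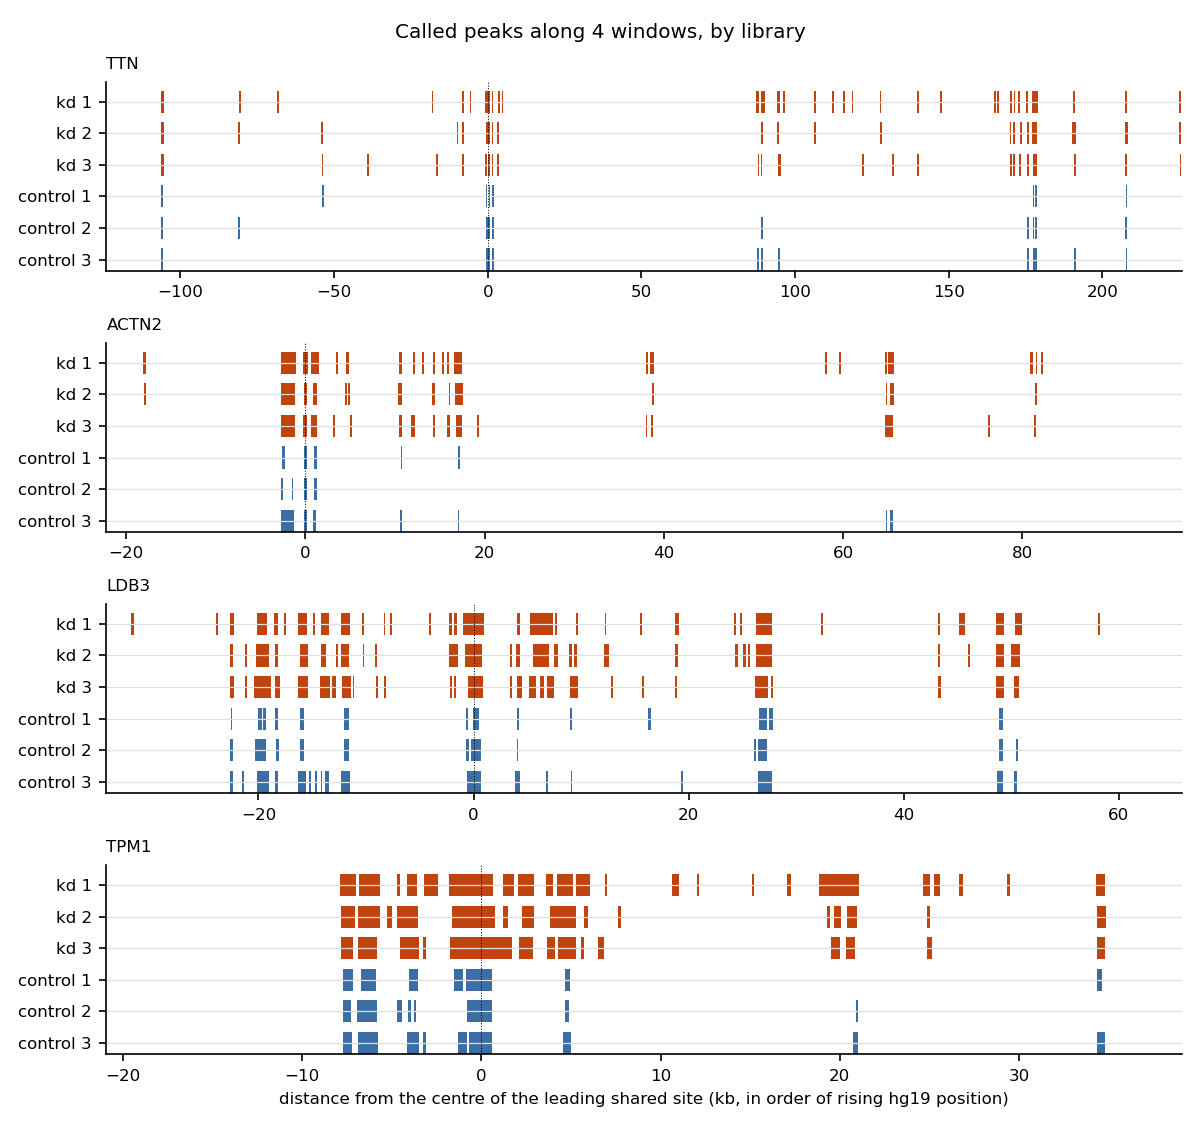
Called peaks (bars, to scale, with narrow peaks widened to a visible minimum) along the TTN, ACTN2, LDB3 and TPM1 windows, with 3 knockdown libraries above 3 control libraries. The horizontal axis is the distance in kb from the centre of the leading site called in all 6 libraries (dotted line); the knockdown rows hold more bars, among them a stretch right of the TTN centre where control libraries have 0, 2 and 4 peaks.

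The changes of the windows were set against those of all features. In 7 of the 10 windows every knockdown library had more peaks than every control library (TTN, ACTN2, MYOM1, LDB3, MYOZ2, TPM1 and ACTC1), and the same held for 44.4% of all windows and tiles tested. For covered bases it held in all 10 windows and in 82.3% of windows and tiles. The windows were 50 to 350 kb long and the tiles 100 kb, so these shares are of unlike features. NEXN was not among the features tested. The median log2 change of the share was 0.18 over the 9 windows tested and -0.07 over all tiles. By percentile among all features, the changes ran from 34.5 for MYBPC3 and 42.8 for MYPN through 56.4 for ACTC1, 67.0 for MYOM1, 67.0 for LDB3, 67.5 for TPM1 and 72.1 for MYOZ2 to 83.0 for TTN and 90.0 for ACTN2. Neighbours in this order differed by less than the sum of their standard errors. By share, every knockdown library stood above every control library in 2 windows, against 11.3% of all features, and below in 0, against 20.2%. Without scaling to the library, 7 of the 9 windows were higher and 0 lower in knockdown, where 43.3% of all features were higher and the median log2 difference was 0.76. With covered bases in place of peaks, 4 windows passed as higher (limma adjusted p = 0.0264 for ACTN2, 0.0175 for TTN, 0.0281 for MYOM1 and 0.0344 for TPM1), and 5.96% of all features did. The log2 change of covered bases as a share of the library was 1.19 for ACTN2, 0.70 for TTN, 0.59 for MYOM1 and 0.46 for TPM1.

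**Figure D3:**
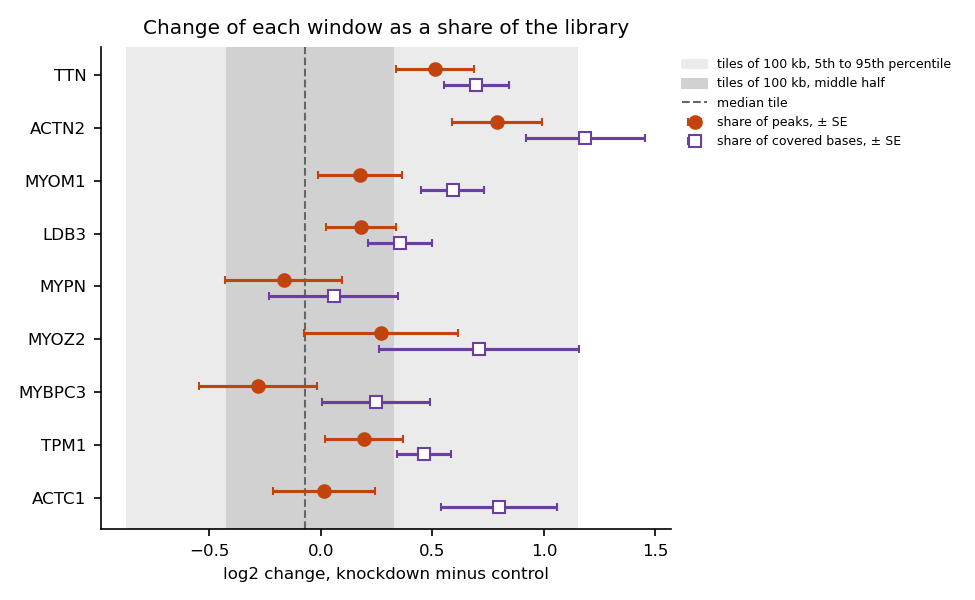
Log2 change of the 9 windows tested (all but NEXN) as a share of the library, knockdown minus control, with SE, by number of peaks (filled circles) and by covered bases (open squares); the shaded bands and dashed line give the spread and median of 100 kb tiles by number of peaks. ACTN2 lies highest for both measures, at 0.79 and 1.19, and MYBPC3 is the lowest of these 9 by peaks, at -0.28.

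Peaks of all libraries that overlapped were merged into 185 regions in the 10 windows. Of these, 35 (18.9%) were called in all 6 libraries, against 18.2% of regions over the genome. Another 20 (10.8%) had a peak in every knockdown library and in no control library, against 7.72% over the genome. In 1 library alone 82 (44.3%) were called, against 38.3%. These 20 regions lay at TTN (6), ACTN2 (5), MYOM1 (3), LDB3 (3), TPM1 (2) and ACTC1 (1), with a median width of 426 bp. Peaks in every control library but no knockdown library made up 0 regions, against 0.131% over the genome. No test was made of these counts. With 3 knockdown libraries against 3 control libraries of equal list length, 1 region of 73 was called only in knockdown, against 3.07% of regions over the genome. Without knockdown replicate 3 the 20 regions became 31. A further 22 had a peak in every knockdown library and in 1 or 2 of the control libraries, and 10 of those had control replicate 3 as their only control library.

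At TTN the strongest sites called only in knockdown were chr2:179485824-179486279, chr2:179719166-179719405 and chr2:179497026-179498025. The first and the last of them flanked the leading TTN site. Another 3 regions, between chr2:179663907 and chr2:179667479, lay side by side below the shared site at chr2:179671214-179672984. At LDB3 they were chr10:88441815-88442663, next to the leading site, chr10:88462822-88463193 and chr10:88487332-88487547. At TPM1 they were chr15:63342965-63343848, between the leading site and the wide site beside it, and chr15:63365577-63366039. At ACTC1 it was chr15:35102714-35103140.

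**Figure D4:**
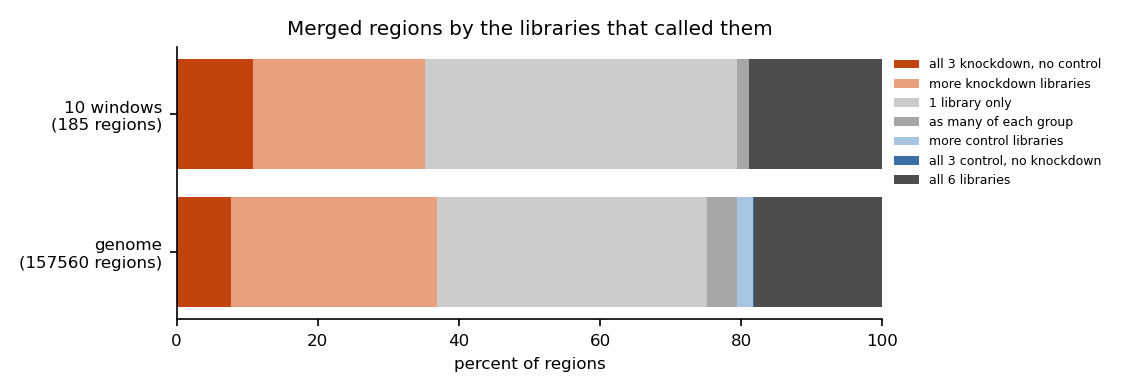
Percent of merged regions (horizontal axis) by the libraries that called them, for the 185 regions of the 10 windows above and the 157560 regions of the genome below. Regions of all 3 knockdown and no control library make up 10.8% in the windows and 7.72% in the genome.

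The 35 sites shared by all 6 libraries were compared site by site. Covered bases sum all peaks that a library called inside a merged region, so the length of a list still enters this measure. Bases covered at a site were higher on average in knockdown at all 35, and at 92.6% of the 28749 shared sites of the genome. The median log2 change was 0.80 over the 35 sites, with a range of 0.19 to 2.43, and 0.47 over all shared sites. At 25 of the 35 every knockdown library covered more bases than every control library, against 47.2% of all shared sites. In limma 10 of the 35 passed as wider and 0 as narrower, where 12.5% of all shared sites passed as wider (at an unadjusted p under 0.05, 26 were wider and 0 narrower). The 10 were 3 sites of MYOM1, 2 each of TPM1 and ACTC1, and 1 each of TTN, ACTN2 and NEXN. The largest changes among them were 2.43 ± 0.25 at the wide TPM1 site (SE; limma adjusted p = 0.0182), 2.37 ± 0.60 at the widest ACTC1 site (0.0438) and 1.65 ± 0.29 at the MYOM1 site on chr18:3219452-3220571 (0.0245). These calls depended on the fit. With the replicate number as a block, or without any 1 of the knockdown libraries, 0 of the 10 passed, and 0 of all 28749 shared sites passed as wider. The changes at the 10 sites were as before under the block, 0.81 to 2.43, and 0.74 to 2.53 without a knockdown library. With each library centred on its median site the changes were 0.36 to 1.98, and again 0 shared sites passed as wider. Without control replicate 1, 6 of the 10 still passed, and without control replicate 2, 3 did. Of all shared sites, 1140 and 1058 then passed as wider. Without control replicate 3 all 10 passed, together with 13 further sites of the windows, and so did 6778 of all shared sites.

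The order of scores among the shared sites was also compared, since that gives every library a list of the same length. The rank was higher on average in knockdown at 29 of the 35 sites, against 49.0% of all shared sites, with a median difference of 11.7 percentile points at the 35 sites and -0.13 at all shared sites. At 9 of the 35 the groups did not overlap with knockdown above, against 11.3% of all shared sites. They did not overlap with knockdown below at the wide TPM1 site and at chr10:88470170-88471969 of LDB3. That LDB3 site stood at 56.5, 57.4 and 51.2% in knockdown and at 62.8, 71.5 and 68.6% in control. How many of all shared sites separated in this direction was not counted. In limma 1 of the 35 passed as higher, the leading TTN site, and 0 as lower, where 1.14% and 1.75% of all shared sites did (at an unadjusted p under 0.05, 10 were higher and 1 lower). The 6 sites with a lower average rank in knockdown lay at TPM1 (3), LDB3, ACTN2 and NEXN. Without control replicate 3, 4 sites passed as higher and 1 as lower. Over all 28749 shared sites, 934 then passed as higher and 1100 as lower, against 327 and 502 with all libraries.

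**Figure D5:**
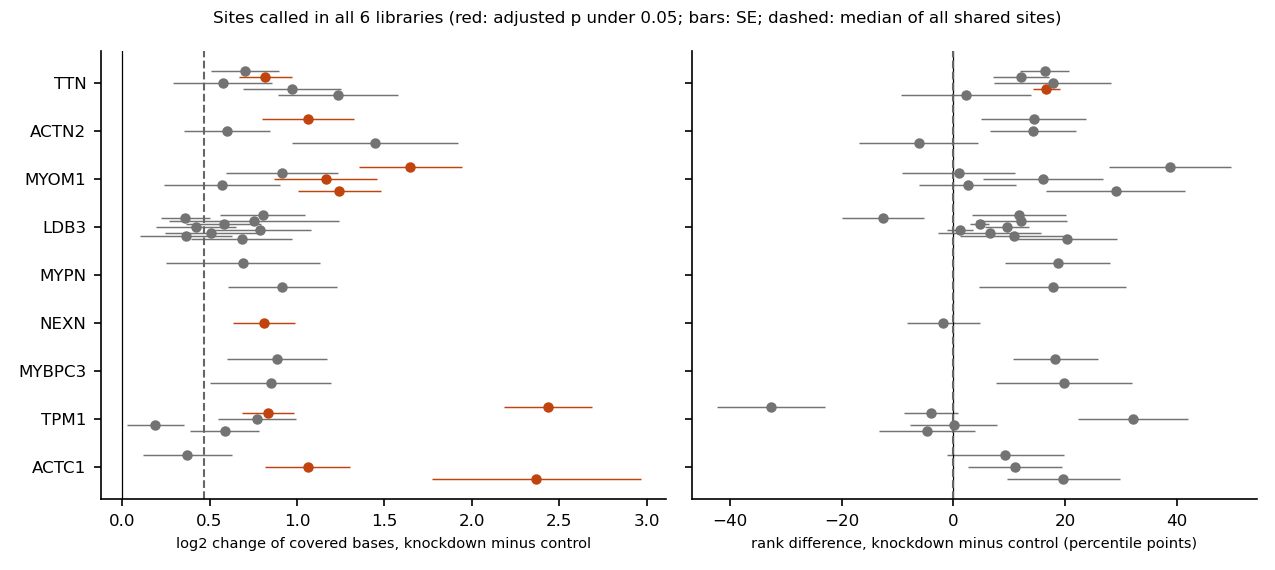
Difference between knockdown and control at the 35 sites called in all 6 libraries, by gene, as log2 bases covered (left) and as rank by score among all shared sites in percentile points (right), with SE. Red points passed the limma test, dashed lines are the median of all shared sites. All 35 sites lie above 0 on the left and 29 of 35 on the right, against 92.6% and 49.0% of all shared sites.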

How the data were processed

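ATAC-seq was measured in 3 knockdown and 3 control libraries. The deposited lists give each peak's hg19 position and the peak caller's integer score, and this score served only for ranks inside 1 list. The submitters' processing notes name Bowtie2 2.4.5 and bedtools 2.30.0. Peak names begin with MACS and carry 1 library each, per the files. Caller version, threshold, Tn5 shift, duplicate removal and the tools' roles were not given in the sources used here, and depth is unknown.

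Peaks were assigned to windows by midpoint. The 10 windows and all other 100 kb tiles with a mean of at least 2 peaks entered limma 3.58.1 (R 4.3.3; trend, robust) as log2((peaks + 0.5) / library total × median total), with Benjamini-Hochberg adjustment over all features and a threshold of 0.05. Peaks that overlapped by 1 bp or more formed a region. For the regions called in all 6 libraries, covered bases (log2) and rank by highest score went through the same limma model; these 2 fits were chosen after seeing the data. Single values were compared by exact permutation tests. The code was tested on simulated data. Other steps ran in Python 3.11.15 (pandas 2.3.3, numpy 2.4.6, matplotlib 3.10.9).

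All 10 genes are named. Sites named in each window are the shared site whose lowest score percentile over the lists was highest and up to 3 sites called in 1 group only, by the same measure; other sites were chosen after their values were seen. Members and lists were chosen with earlier results of these data known. Other sarcomere genes were not analysed here, since no hg19 annotation was used. Alternatives were other scalings, pseudocounts, filters, tiles, list lengths, joining rules, the replicate block and leaving out each library. Assigning peaks by any overlap with a window left the 3 ratios as they were.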

Additional observations from a re-analysis of the deposited data

How the results depend on the processing

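Against 1 window higher and 0 lower, 7 were higher without scaling, 4 by covered bases, and 0 with lists of equal length or the stronger part of each list. Leaving out 1 library gave 0 to 1 higher. The split of higher and lower over all features was 219 and 585, 242 and 308 scaled to the median ratio, and 5813 and 36 without scaling. The ratio of peaks fell to 1.17 with lists of equal length, and the ratio of shares to 1.01 with the stronger part of each list. Regions called only in knockdown numbered 20, against 1 with equal lists, 5 with the stronger part, 38 with 2 of 3 libraries and 20 to 31 with 1 library left out. Regions called in all 6 numbered 35, against 21 with the stronger part and 4 when peaks had to cover 50% of a region. Shared sites with more covered bases numbered 10, against 0 with the replicate block, 0 centred on the median site and 0 to 23 with 1 library left out. Those with a higher rank numbered 1, and 0 to 4 with 1 library left out, and those with a lower rank 0 to 1. These alternatives use fewer peaks or libraries or another scale, and other causes were not tested.

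Some changes that had not passed turned their sign. Leaving out the scaling moved all features alike, with a median of 0.76 in place of -0.07, so the sign turns without scaling are that shift: MYPN minus the median was -0.10 and MYBPC3 minus the median -0.21 in both settings. MYPN became 0.66 without scaling, 0.0571 by covered bases, 0.44 with equal lists and 0.63 with the stronger part. MYBPC3 became 0.55 without scaling and 0.25 by covered bases. With the stronger part, where the median of all features was -0.22, TTN became -0.34, LDB3 -0.22, TPM1 -0.0299 and ACTC1 -0.14, which minus that median are -0.11 for TTN, 0.19 for TPM1 and 0.09 for ACTC1, with LDB3 at the median. ACTC1 became -0.0376 with a pseudocount of 1 and ran from -0.17 to 0.19 with 1 library left out. Over all alternatives, 124 window values kept direction and side of the threshold, 6 lost the threshold, 9 passed it and 14 turned, the shifts just named included.

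With the replicate number as a block, 1 window was higher and 0 lower, the peak ratio was 2.28, that of shares 1.24 and that of bases 2.91. Deviations of libraries with the same number correlated by -0.02, 0.03 and 0.01, so the numbers were not taken as pairs. Depth is unknown and limits every count.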

Other observations

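Sites seen in a single library were many but narrow, here as over the genome. Of the 185 regions, 82 (44.3%) were called in 1 library alone, against 38.3% over the genome. Their median width was 170 bp, against 174 bp over the genome. They held 15.8 kb of the region bases, or 16.5%, against 44.5 kb, or 46.6%, in the 35 regions of all 6 libraries. Knockdown replicates 1, 2 and 3 called 47, 16 and 13 of them, and control replicates 1, 2 and 3 called 1, 1 and 4. Knockdown replicate 1, the longest list, had the most peaks of the knockdown libraries in 6 of the 10 windows. At MYBPC3 7 of 12 regions and at TTN 21 of 42 were of this kind, and at MYOZ2 0 of 4.

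Wide peaks of at least 1 kb numbered 15, 15 and 13 in the windows of the knockdown libraries, against 1, 5 and 8 in those of the control libraries. The whole knockdown lists held 8886, 7973 and 7248 such peaks and the control lists 3682, 3549 and 4583. Of the 35 shared sites, 12 (34.3%) were covered over at least 1 kb in every knockdown library and 2 (5.71%) in every control library. Of all shared sites, 22.6% were so covered in knockdown and 11.1% in control. None of these counts was tested.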
